A study of Mus musculus with 10 samples.

Results

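The enzymes described here are the glutathione, glucuronide and sulfate conjugating enzymes, the carboxylesterases, the flavin-containing monooxygenases and the alcohol and aldehyde dehydrogenases of mouse hepatocytes. They were chosen by name alone, as every probe set whose platform annotation gives exactly 1 gene symbol beginning with Gst, Mgst, Ugt, Sult, Ces, Fmo, Adh or Aldh and a class letter or digit. The rule found 72 of the 12488 probe sets, for 50 genes in 8 families. By family these were 22 probe sets for 15 Gst genes, 5 for 3 Mgst genes, 2 for 2 Ugt genes, 10 for 9 Sult genes, 6 for 5 Ces genes, 3 for 2 Fmo genes, 6 for 4 Adh genes and 18 for 10 Aldh genes. A filter on dim probe sets, set at the 40th percentile of the mean log2 intensity over all arrays, left 55 of them, for 41 genes.

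In a hepatocyte, oxidation by enzymes such as the flavin-containing monooxygenases, alcohol dehydrogenases and aldehyde dehydrogenases, and hydrolysis by carboxylesterases, expose or create reactive groups on a foreign or endogenous compound. Conjugation then attaches glutathione (Gst and the membrane-bound Mgst enzymes), glucuronic acid (Ugt) or sulfate (Sult), which makes the product soluble enough for export into bile or blood. Many of these genes, though not all, are strongly expressed in liver, under the control of liver-enriched and ligand-activated transcription factors.

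Total RNA of hepatocytes was hybridised to 10 oligonucleotide arrays in 4 groups: 3 hypoxic arrays labelled HIF-1alpha null, 3 hypoxic adeno-treated wild-type arrays, 2 normoxic adeno-treated arrays and 2 normoxic untreated arrays. HIF-1alpha is the subunit of the hypoxia-inducible transcription factor that is stabilised in low oxygen. The sources used here do not give whether the cells labelled null received the adeno treatment, how the gene was deleted, the genotype of normoxic cells, the vector, the oxygen level and duration of hypoxia, or the strain and age of the animals. No normoxic null array was analysed here, so a genotype difference and a difference in the response to hypoxia cannot be told apart, and any comparison of the null with the normoxic arrays holds both. The 2 probe sets of the targeted gene Hif1a read 1647, 1010.5 and 850.0, and 1689, 1141 and 910.3, on arrays 1, 2 and 3 labelled null, against 962, 703 and 711, and 1096, 704 and 712, on the wild-type arrays. Each null array was the higher of its number. The deleted part of the gene is not stated, so these probe sets do not check the label, and every direction stated for the null arrays rests on the label.

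The values are the authors' scaled intensities on a linear scale. They were compared as log2 of the intensity plus 4.7, the 10th percentile of all values, so that a change below is a difference of mean log2 values and understates the change of dim probe sets. A probe set is said to be called when its limma p, adjusted by Benjamini-Hochberg over all 7453 probe sets tested, was under 0.05 in a 2-sided test. The labels number the arrays 1 to 3, and arrays of the same number in different groups deviated together. Each comparison was therefore also fitted with the array number as a block (the replicate block). Calls of that fit are named as such. The pairing is weak for normoxic arrays 2. Their deviations from group means correlated with those of hypoxic arrays 2 at 0.106 to 0.177, and of hypoxic arrays 3 at 0.149 to 0.251. Nothing in the labels says that the arrays of a group came from separate cultures, so the p-values measure the spread between these arrays, which may be technical. Brightness was compared within a probe set only, since probe sets differ in how well they hybridise.

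Of 12 hepatocyte marker genes 10 were on the array, all 10 passed the filter, and none fell below 82.3 on any array. Markers of other cell types passed the filter too, among them 11 of 12 stellate cell and fibroblast genes and 7 of 10 macrophage genes. Col1a1 read up to 3873 and the biliary marker Krt19 up to 2291, so the markers do not show hepatocytes alone. The hypoxic arrays of number 3 stood apart from the other hypoxic arrays. Their 18S ribosomal RNA control probe sets had mean log2 values of 12.18 in null and 12.33 in wild type, where the other hypoxic arrays had 7.38 to 8.97. Normoxic adeno-treated array 2 had 10.25, above the other normoxic arrays at 5.98 to 7.08. The counts of calls against normoxia are also given without the hypoxic arrays of number 3, and without normoxic adeno-treated array 2.

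Hypoxic cells labelled null were compared with normoxic adeno-treated cells to see how the detoxification enzymes stood in hypoxia without HIF-1alpha. With the replicate block, 12 of the 55 tested probe sets fell and none rose, against 2.83% of all probe sets called lower and 2.95% called higher. They came from 6 of the 8 families: both tested Ugt genes, 5 Gst genes, Sult1d1, Fmo5, Adh1 and the aldehyde dehydrogenases Aldh1a7 and Aldh2. Their block estimates ran from -1.32 for Ugt2b5 to -0.51 for Gstz1 on the log2 scale, and each of the 12 was lower on the null array in both same-number pairs. Without the block none of the 55 was called in either direction, where 0.0805% of all probe sets were called lower and 0.349% higher, and 10 of the 55 had an unadjusted p under 0.05, all of them lower (4.56% of all probe sets were lower and 5.18% higher at that level). The block estimates against normoxia use the number 3 arrays only through the difference of null and wild type, because no normoxic array has number 3. With the number 3 arrays left out, 9 of the 12 were called, and Gsta3, Sult1d1 and Gstz1 were not. Most calls were lost when 1 other array was left out of the block fit: 4 were called without normoxic adeno-treated array 1, 2 without array 2 and 5 without null array 2, with Fmo5 called each time.

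**Figure D1:**
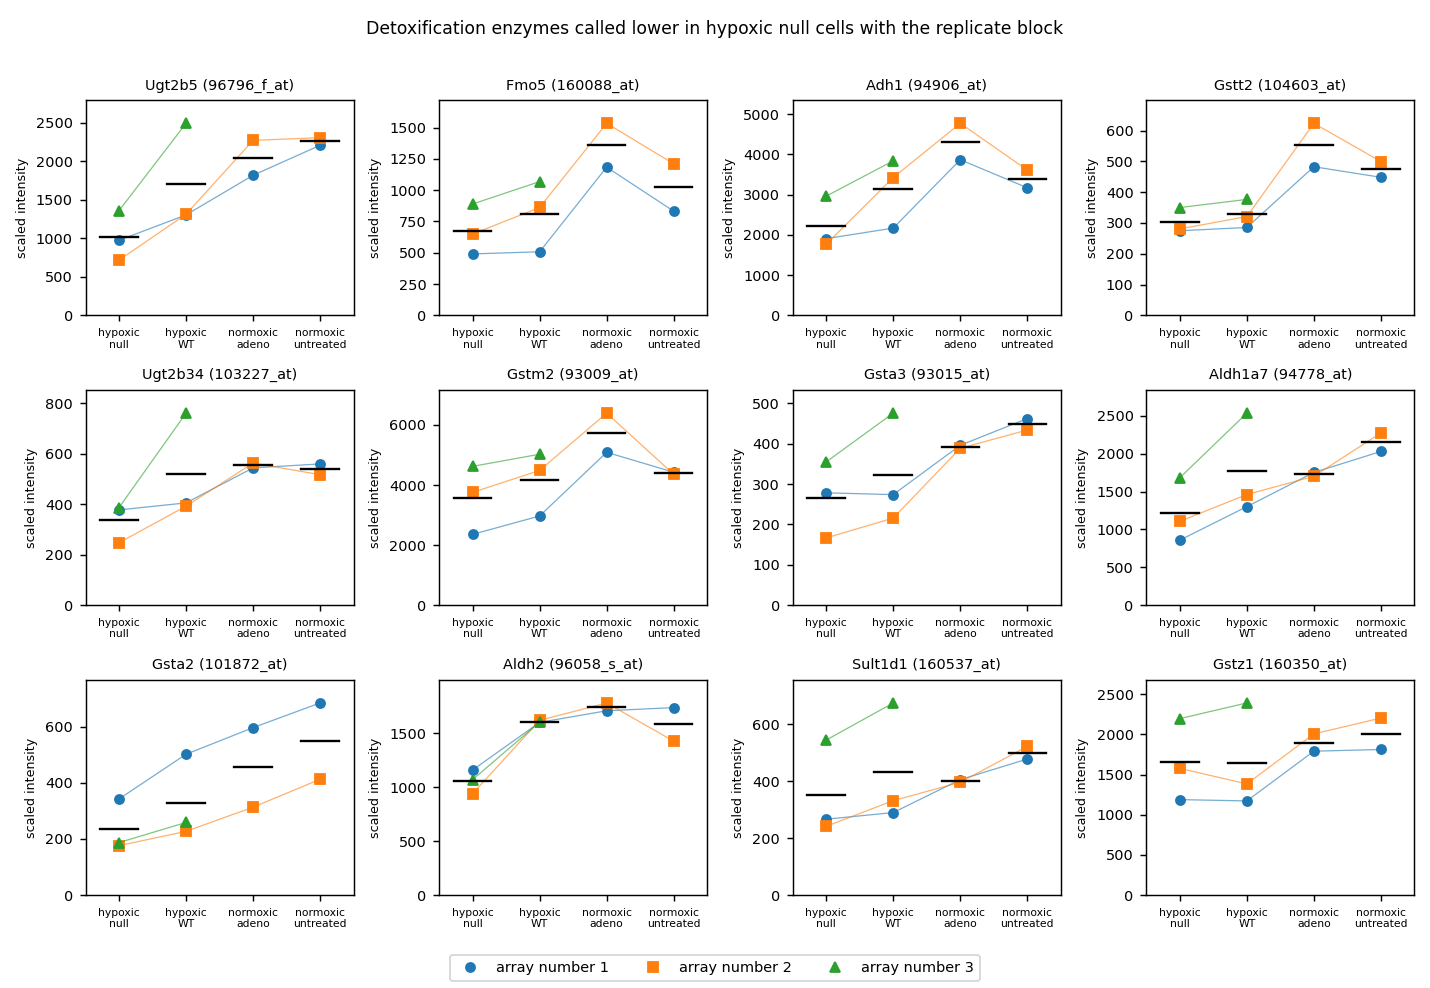
Scaled intensity (vertical axes, linear, from 0) of the 12 probe sets called lower with the replicate block in hypoxic arrays labelled null against normoxic adeno-treated arrays, ordered from the largest block estimate (Ugt2b5, -1.32) to the smallest (Gstz1, -0.51). Points are arrays, coloured and shaped by array number and joined across groups, and black bars are group means; within number 1 and within number 2 every null point lies below its normoxic adeno-treated point.

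The 2 tested glucuronosyltransferases, Ugt2b5 and Ugt2b34, which attach glucuronic acid to steroids and foreign compounds, were lower on every null array than on any of the normoxic adeno-treated arrays. Ugt2b5 had 974, 717 and 1359 on null arrays 1, 2 and 3, 1304, 1312 and 2492 on the wild-type arrays, 1818 and 2271 on normoxic adeno-treated arrays 1 and 2, and 2207 and 2306 on the untreated arrays. The null arrays did not overlap with either normoxic group, but null array 3 was above wild-type arrays 1 and 2. The difference from the normoxic adeno-treated arrays was -1.04 (SE 0.32, adjusted p = 0.313), and with the block -1.32 (SE 0.17, adjusted p = 0.00287). Ugt2b34 had 378, 248 and 387 on the null arrays, 405, 392 and 761 on the wild-type arrays, 544 and 563 on the adeno-treated arrays and 559.6 and 517 on the untreated arrays. It was lower on all null arrays than on any array of the other 3 groups, and its block estimate against the adeno-treated arrays was -0.94 (adjusted p = 0.0268, and 0.457 without the block). The 2 genes lie near each other on chromosome 5 with 3 protein-coding genes between them, and the Ugt2b5 probe set ends in f, a class of probe sets that can hybridise with related transcripts, so signal of near-identical Ugt2b transcripts may be shared.

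Among the glutathione transferases, 5 of 20 tested probe sets fell with the block and none rose. Gstt2, a theta-class enzyme, had 275, 281 and 350.1 on the null arrays, 285, 321 and 376 on the wild-type arrays, 483 and 624 on the adeno-treated arrays and 448 and 499.5 on the untreated arrays. All 6 hypoxic arrays were below all 4 normoxic arrays. It changed by -0.86 in null (SE 0.20, adjusted p = 0.148) and with the block by -0.97 (adjusted p = 0.00618). Gstm2 (probe set 93009_at), a mu-class enzyme, had 2358, 3755 and 4622 on the null arrays, 2970.1, 4486 and 5025 on the wild-type arrays, 5089 and 6393 on the adeno-treated arrays and 4427 and 4356 on the untreated arrays. Here every hypoxic array was below both adeno-treated arrays, while both number 3 arrays and wild-type array 2 were above both untreated arrays. Its block estimate was -0.91 (adjusted p = 0.0118, and 0.447 without the block).

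Gsta2 and Gsta3 are alpha-class enzymes. Gsta2 had 342, 176 and 187 on the null arrays, 502, 227 and 259 on the wild-type arrays, 596 and 313 on the adeno-treated arrays and 684 and 412 on the untreated arrays. In all 4 groups array 1 was well above array 2, so the groups overlapped although each null array was the lowest of its number. Its block estimate was -0.80 (adjusted p = 0.0172, and 0.532 without the block). Gsta3 had 278, 167 and 355 on the null arrays, 274, 216 and 476 on the wild-type arrays, 396 and 389 on the adeno-treated arrays and 462 and 434 on the untreated arrays, and its block estimate was -0.89 (adjusted p = 0.0264). The null arrays were all below the normoxic arrays, while wild-type array 3 was above all normoxic arrays. Gstz1, which also acts in tyrosine breakdown, had 1188, 1576 and 2196 on the null arrays, 1171, 1383 and 2391 on the wild-type arrays, 1790.2 and 2005 on the adeno-treated arrays and 1811 and 2202 on the untreated arrays. Arrays 1 and 2 of both hypoxic groups were below the adeno-treated arrays and array 3 was above them, and its block estimate of -0.51 was near the threshold (adjusted p = 0.0412).

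The brightest glutathione transferase probe sets were not called in either fit. Gstm1 (93543_f_at), a mu-class enzyme, had 9962, 9705 and 10052 on the null arrays, 7842, 10236 and 11068 on the wild-type arrays, 9902 and 13705 on the adeno-treated arrays and 7054 and 7201 on the untreated arrays, and its null minus adeno-treated difference was -0.23 (adjusted p = 0.723, and 0.258 with the block). Gstm3 (97681_f_at) and Gstp1, a pi-class enzyme, gave -0.25 and -0.19 (adjusted p = 0.702 and 0.773). In these 3 probe sets the hypoxic arrays lay between the normoxic groups or overlapped them. Gsta4, which conjugates lipid peroxidation products such as hydroxynonenal, varied more within groups than between them: it had 137, 43.1 and 35.1 on the null arrays, 137, 70.6 and 9 on the wild-type arrays, 126 and 72.2 on the adeno-treated arrays and 176 and 91.4 on the untreated arrays. Its array 1 was the highest of every group. None of the 3 tested microsomal transferases was called with or without the block, and their null minus adeno-treated differences were -0.18 for Mgst1, 0.55 for Mgst2 and -0.16 for Mgst3. The 3 tested probe sets with the smallest p among those higher in null were Gstm1 (161633_r_at, 0.26), Gstm5 (100630_f_at, 0.27) and Mgst2, with adjusted p of 0.683, 0.64 and 0.77.

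Of the 5 tested sulfotransferases only Sult1d1, which in mouse sulfates catecholamines and other small phenols, was called. It had 266, 241 and 544 on the null arrays, 289, 331 and 674 on the wild-type arrays, 405 and 396 on the adeno-treated arrays and 477 and 522 on the untreated arrays. Arrays 1 and 2 of both hypoxic groups were below all normoxic arrays, and array 3 of each was above them. The block estimate was -0.65 (adjusted p = 0.0317), and without the block the difference was -0.29 (adjusted p = 0.877). Sult1b1, its neighbour on chromosome 5, gave -0.45 (adjusted p = 0.874) with null arrays from 9.8 to 66. Sult1a1, the phenol sulfotransferase, gave -0.05 (adjusted p = 0.97) and Sult2a2, a hydroxysteroid sulfotransferase, -0.10 (adjusted p = 0.973). Sult4a1, a member of the family best known from brain, had 59.1, 68.2 and 56.8 on the null arrays, 56.4, 81.8 and 23.1 on the wild-type arrays, 71.1 and 106 on the adeno-treated arrays and 67.9 and 63.7 on the untreated arrays. All its null arrays were below both adeno-treated arrays, and the difference of -0.47 did not pass (adjusted p = 0.767, and 0.742 with the block). Sult1c1, Sult2b1, Sult3a1 and Sult5a1 had no probe set above the filter.

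Fmo5 and Adh1 were among the largest falls of the enzymes that oxidise their substrates. Fmo5 (160088_at), a flavin-containing monooxygenase that inserts oxygen next to carbonyl groups, had 491, 649 and 889 on the null arrays, 508, 862 and 1068 on the wild-type arrays, 1184 and 1534 on the adeno-treated arrays and 832 and 1210.4 on the untreated arrays. Every hypoxic array was below both adeno-treated arrays, while the untreated arrays overlapped with the hypoxic ones. The difference was -1.03 (SE 0.34, adjusted p = 0.344), and -1.25 with the block (SE 0.13, adjusted p = 0.00133), the smallest adjusted p of these families in any comparison. Fmo1, which oxygenates nitrogen and sulfur compounds, had 204, 322 and 858 on the null arrays, 156, 212 and 629.7 on the wild-type arrays, 266 and 325 on the adeno-treated arrays and 319.9 and 471 on the untreated arrays. Array 3 of each hypoxic group was above all 4 normoxic arrays and arrays 1 and 2 were below the brighter array of each normoxic group, and Fmo1 was not called in null (block estimate -0.20, adjusted p = 0.472).

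Adh1, the class I alcohol dehydrogenase that carries most of the ethanol oxidation in liver, had 1906, 1769 and 2962 on the null arrays, 2168, 3423 and 3838 on the wild-type arrays, 3865 and 4769 on the adeno-treated arrays and 3169 and 3608 on the untreated arrays. All null arrays were below all normoxic arrays. It changed by -0.99 (SE 0.28, adjusted p = 0.275), and with the block by -1.19 (SE 0.16, adjusted p = 0.00371). The other alcohol dehydrogenases did not pass. The Adh5 probe sets 98625_s_at and 95765_at, for the enzyme that oxidises formaldehyde bound to glutathione, gave -0.19 and -0.16, Adh7 gave -0.33, and the Adh4 probe sets 103983_at and 103982_s_at gave -0.08 and 0.09. Their adjusted p with the block ran from 0.126 for Adh7 to 0.818 for Adh4. Adh7, Adh1, Adh4 and Adh5 lie in that order in a cluster on chromosome 3.

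The windows around the start sites of Ugt2b5, Fmo5 and Adh1 are shown because these genes had the 3 largest block estimates. Each runs from 250 bases before the annotated start to 50 bases after it, 5′ to 3′ on the gene's strand, from RefSeq with the build GRCm38.p6. Capitals mark matches to any of 7 motifs searched on both strands: the hypoxia response core ACGTG, the xenobiotic response core GCGTG, the antioxidant response core TGACNNNGC, the C/EBP motif TTNNGCAA, the HNF4 motif CAAAGTCCA, the HNF1 motif GTTAATNAT, and TATAAA, the core promoter box. 
Ugt2b5, chr5:87140291-87140590, minus strand: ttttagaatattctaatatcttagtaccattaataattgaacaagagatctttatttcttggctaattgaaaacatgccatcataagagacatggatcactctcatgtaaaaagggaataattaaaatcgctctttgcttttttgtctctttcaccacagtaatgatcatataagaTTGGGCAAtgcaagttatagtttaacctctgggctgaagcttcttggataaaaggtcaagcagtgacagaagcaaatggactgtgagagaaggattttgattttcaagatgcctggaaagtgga
Fmo5, chr3:97628769-97629068, plus strand: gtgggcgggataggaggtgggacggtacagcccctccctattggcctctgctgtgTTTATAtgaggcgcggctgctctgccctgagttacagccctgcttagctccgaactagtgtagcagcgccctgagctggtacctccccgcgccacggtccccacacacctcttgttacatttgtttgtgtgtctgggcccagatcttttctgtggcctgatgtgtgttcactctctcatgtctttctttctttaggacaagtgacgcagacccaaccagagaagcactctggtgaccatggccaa
Adh1, chr3:138277335-138277634, plus strand: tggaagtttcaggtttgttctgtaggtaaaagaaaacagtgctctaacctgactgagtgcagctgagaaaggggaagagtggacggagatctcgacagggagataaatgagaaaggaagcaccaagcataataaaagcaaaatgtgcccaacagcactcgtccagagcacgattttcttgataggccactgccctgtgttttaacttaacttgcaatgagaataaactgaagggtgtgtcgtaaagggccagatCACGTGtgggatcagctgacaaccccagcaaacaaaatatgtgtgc
In Ugt2b5 the capitals are TTGGGCAA, a C/EBP match that begins at position -74 from the start. In Fmo5 they are a TATA match on the reverse strand that begins at position -195. In Adh1 the 6 capitals hold the hypoxia response core on both strands, overlapping, from position 5 after the start. Of 32851 RefSeq windows of this length, 19.6% held ACGTG, 32.4% GCGTG, 12.4% TGACNNNGC, 10.8% TTNNGCAA, 0.475% CAAAGTCCA, 0.801% GTTAATNAT and 13.6% TATAAA. Among the 11 windows of the 10 called genes with an entry, 1 held ACGTG, 2 GCGTG, 1 TGACNNNGC, 3 TTNNGCAA, 0 CAAAGTCCA, 1 GTTAATNAT and 4 TATAAA. Among the 48 windows of 39 genes of these families the counts were 11, 17, 5, 8, 1, 1 and 11. A match describes letters in a window and not a bound site.

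Of the 12 tested aldehyde dehydrogenase probe sets, Aldh1a7 and 1 of the 3 Aldh2 probe sets fell with the block. Aldh1a7, a rodent enzyme close in sequence to Aldh1a1, had 859, 1108 and 1683 on the null arrays, 1301, 1461 and 2535 on the wild-type arrays, 1752 and 1702 on the adeno-treated arrays and 2029 and 2274 on the untreated arrays. Each null array was below the wild-type array of its number and below all normoxic arrays. Its block estimate was -0.84 (SE 0.13, adjusted p = 0.00681, and 0.617 without the block). Aldh1a1 (100068_at), which oxidises retinal and lies directly beside Aldh1a7 on chromosome 19, had 4449, 2689.8 and 3012 on the null arrays, 4679, 5267 and 6154 on the wild-type arrays, 4696 and 6034 on the adeno-treated arrays and 4522 and 4979 on the untreated arrays. The 3 null arrays were the lowest of the 10, null array 1 by a small margin, and the difference did not pass (-0.69, adjusted p = 0.342, and 0.097 with the block).

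The Aldh2 probe sets disagreed. Aldh2 is the mitochondrial enzyme that clears acetaldehyde. Probe set 96058_s_at had 1158, 939 and 1069 on the null arrays, 1598, 1617 and 1599.7 on the wild-type arrays, 1706 and 1778 on the adeno-treated arrays and 1735 and 1424 on the untreated arrays, so that all null arrays were below all others. It changed by -0.73 (SE 0.16, adjusted p = 0.122, and 0.0144 with the block). Probe set 96057_at had 1487, 1338 and 1364 on the null arrays, 1221, 1311 and 1292 on the wild-type arrays, 1507 and 1455 on the adeno-treated arrays and 1027 and 799.7 on the untreated arrays, and its null arrays were all above the wild-type arrays. It gave -0.09 and the third probe set, 161997_f_at, 0.13 in null against adeno-treated cells (adjusted p = 0.914 and 0.907). The fall of Aldh2 in null cells therefore stands for 1 probe set of 3, and that probe set ends in s, a class that can match several transcripts.

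**Figure D2:**
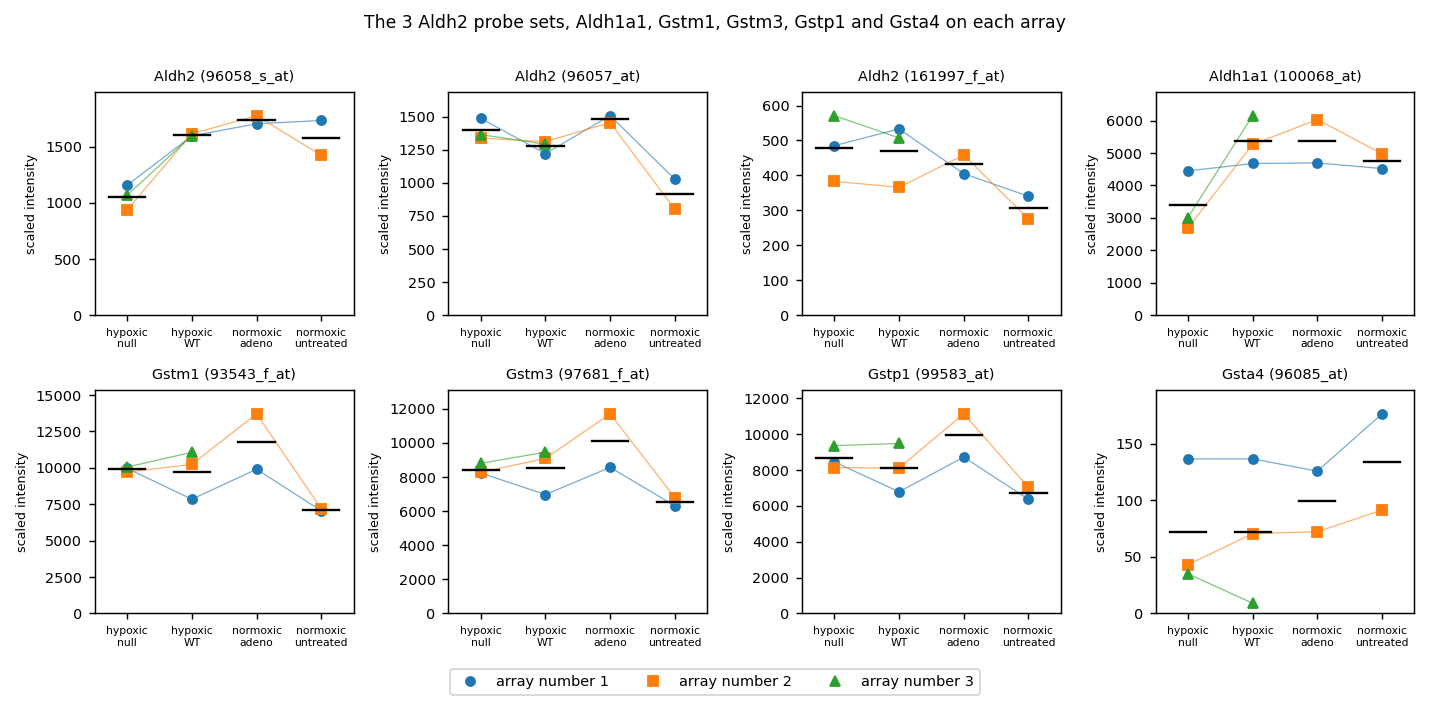
Scaled intensity (vertical axes, linear, from 0) of the 3 Aldh2 probe sets, Aldh1a1, Gstm1, Gstm3, Gstp1 and Gsta4 on each array, with points coloured and shaped by array number and black bars for group means. In the Aldh2 probe set 96058_s_at the null arrays (939 to 1158) lie below all others, in 96057_at they lie above the wild-type arrays, and in Gstm1, Gstm3 and Gstp1 both adeno-treated arrays lie above both untreated arrays.

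The other aldehyde dehydrogenases gave smaller differences in null cells. The Aldh7a1 probe sets 97449_at and 97450_s_at, for an enzyme of lysine breakdown, agreed in direction at -0.40 and -0.36 (adjusted p = 0.475 and 0.481, and 0.104 and 0.128 with the block), with all 6 hypoxic arrays below all 4 normoxic arrays in both. Aldh3a2, which oxidises fatty aldehydes, gave -0.12 and 0.29, Aldh9a1 0.00, Aldh3a1 0.27 and Aldh18a1, a proline synthesis enzyme, 0.09. None of these passed in either fit. Among the 4 tested carboxylesterase probe sets, which stand for ester-cleaving enzymes, none passed either: the null minus adeno-treated differences were 0.04 for Ces1c, 0.21 and 0.36 for Ces1d and -0.25 for Ces2g, and all 4 were below 0 in the block fit, the lowest at -0.39 for Ces2g.

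Over all 55 tested probe sets, 36 were lower in null than in normoxic adeno-treated cells and 19 higher, with a median of -0.16 without and -0.28 with the block, against 0.01 and 0.03 over all probe sets tested. With the number 3 arrays left out the median of the 55 was -0.29 in both fits. By family, the block medians were -1.13 for Ugt, -0.45 for Sult, -0.34 for Adh, -0.28 for Gst, -0.20 for Fmo, Ces and Aldh alike, and 0.04 for Mgst. Without the block the medians were -0.89 for Ugt, -0.29 for Sult, -0.18 for Adh, -0.21 for Gst and -0.10 for Aldh, while 3 families had the opposite sign, at 0.08 for Fmo, 0.12 for Ces and -0.16 for Mgst. Within the same array number, 37 of 55 were lower on the null array in both numbers, against 28.6% of all probe sets. The arrays of both groups did not overlap in 14 probe sets that were lower and 2 that were higher, where 12.1% and 13.8% of all probe sets did so. A loss of hepatocytes and less RNA of these genes per hepatocyte cannot be told apart in such bulk samples.

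**Figure D3:**
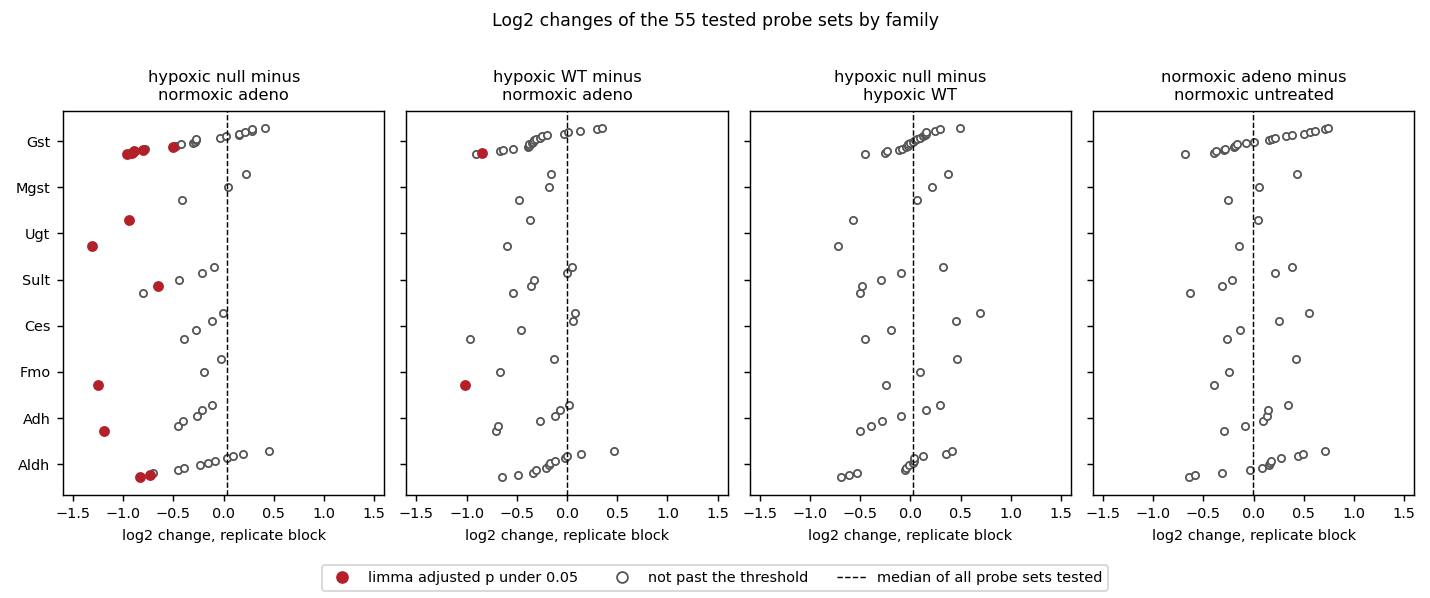
Log2 change with the replicate block (horizontal axes) of the 55 tested probe sets, by family (vertical axis) and comparison (panels). Filled red points passed an adjusted p of 0.05 and open points did not, and the dashed line is the median of all 7453 probe sets; the 12 red points in the null against normoxic adeno-treated panel and the 2 in the wild-type panel all lie left of 0.

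Hypoxic wild-type cells were compared with normoxic adeno-treated cells, which asks for the response to low oxygen in cells that keep HIF-1alpha. This comparison shares its normoxic arrays with the one above, so the values of both are given side by side and their likeness is no evidence. With the block 2 of the 55 probe sets fell, Fmo5 and Gstt2, with or without the number 3 arrays, and none rose, against 0.738% of all probe sets called lower and 1.49% called higher. Gstt2 was not called without wild-type array 1 or without wild-type array 2 (adjusted p = 0.0529 and 0.0811). The closing section gives the counts without each normoxic adeno-treated array, on which both calls depended. Fmo5 (160088_at) changed by -1.25 in null and -1.01 in wild type (adjusted p = 0.00133 and 0.00464), and Gstt2 by -0.97 in null and -0.85 in wild type (adjusted p = 0.00618 and 0.0165). Without the block none was called (adjusted p = 0.601 for Fmo5 and 0.277 for Gstt2 in wild type), where 0.322% of all probe sets were called higher and 0% lower, and the 3 with an unadjusted p under 0.05, Gstt2, Fmo5 and Aldh7a1 (97449_at, -0.44), were all lower, against 3.46% of all probe sets lower and 4.47% higher. Several others just missed the threshold with the block: Fmo1 at -0.67 (adjusted p = 0.0513), Gstz1 at -0.53 (adjusted p = 0.0534), and Adh1, Gstm2 (93009_at), Aldh3a2 (99559_at) and Ces1d (101538_i_at) at -0.69, -0.67, -0.65 and -0.97 (adjusted p = 0.0567 for each).

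The remaining genes called in null stood lower in wild type as well, without passing. Ugt2b5 gave -0.60 (adjusted p = 0.0915), Ugt2b34 -0.37, Gsta3 -0.64, Gsta2 -0.35, Sult1d1 -0.36, Aldh1a7 -0.31 and Aldh2 (96058_s_at) -0.12 with the block, with adjusted p up to 0.661 for Aldh2. The 3 probe sets of smallest p among those higher were Gstm1 (161633_r_at, 0.28), Aldh3a2 (161401_f_at, 0.34) and Sult2a2 (0.40), with adjusted p from 0.751 to 0.884. In all, 39 of 55 were lower, with a median of -0.09 without and -0.30 with the block, against -0.02 and 0.00 over all probe sets. With the number 3 arrays left out the median of the 55 was -0.28 in both fits. Within the same array number 32 of 55 were lower in both numbers, against 30.8% of all probe sets. The arrays did not overlap in 9 that were lower and 2 that were higher, against 13.1% and 11.6% of all probe sets.

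Hypoxic cells labelled null were compared with hypoxic wild-type cells to see what the loss of HIF-1alpha changed in low oxygen. No probe set of these families was called in either fit. In the fit without the block 0% of all probe sets were called in either direction, and with it 0.0134% were called higher and 0.121% lower, so few calls were made anywhere. At an unadjusted p under 0.05, 3 of the 55 were lower and 0 higher, where 1.69% of all probe sets were lower and 1.69% higher. They were Aldh2 (96058_s_at), Aldh1a1 and Ugt2b5, and each was lower on the null array in 3 of 3 same-number pairs. Aldh2 (96058_s_at) averaged 1055 ± 110.0 (SD, n = 3) on the null arrays and 1605 ± 10.4 (SD, n = 3) on the wild-type arrays, with no overlap (-0.61, SE 0.14, adjusted p = 0.512, and 0.0756 with the block). Its other probe sets gave 0.13 and 0.03. Aldh1a1 averaged 3384 ± 937 (SD, n = 3) on the null arrays and 5367 ± 742 (SD, n = 3) on the wild-type arrays, also with no overlap (-0.69, adjusted p = 0.86, and 0.245 with the block). The same-number differences of Aldh1a1 were -0.07, -0.97 and -1.03 for numbers 1, 2 and 3, so number 1 hardly differed.

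Ugt2b5 averaged 1017 ± 323 (SD, n = 3) on the null arrays and 1703 ± 684 (SD, n = 3) on the wild-type arrays, which overlapped (-0.72, adjusted p = 0.999, and 0.0818 with the block). Its same-number differences were -0.42, -0.87 and -0.87. In the other direction the probe sets of smallest p were Aldh3a2 (99559_at, 0.41), Aldh3a1 (0.36) and Ces1d (101538_i_at, 0.69), each higher in 3 of 3 pairs (adjusted p = 0.999 for each). Of the 55, 28 were higher in null and 27 lower with a median of 0.00, against 0.02 over all probe sets. In 15 of 55 the null array was lower in all 3 numbers, against 14.3% of all probe sets, and in 11 it was higher, against 18.4%. The arrays did not overlap in 2 that were higher and 3 that were lower, against 4.04% and 2.74% of all probe sets. The 2 Ugt probe sets had a median of -0.65 and 4 of 5 Sult probe sets were lower, while all 3 Mgst probe sets were higher, with a median of 0.22. No member of these families was thus shown to differ between null and wild type, and the count of 12 in null against 2 in wild type is not a test of that difference.

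Normoxic adeno-treated cells were compared with normoxic untreated cells, which by their labels differ in the adeno treatment. The genotype of normoxic cells is not given, so the groups may differ in more than the treatment. No probe set of these families was called in either fit, where 0% of all probe sets were called without the block, and 0.107% were called higher and 0.148% lower with it. At an unadjusted p under 0.05, 5 of the 55 were higher and 1 lower, against 4.15% and 4.17% of all probe sets. Of those 5, 4 were glutathione transferase probe sets: Gstm1 (93543_f_at) averaged 11804 ± 2689 (SD, n = 2) on the adeno-treated and 7127 ± 104 (SD, n = 2) on the untreated arrays (0.71, adjusted p = 0.498, and 0.0709 with the block). Gstm3 gave 0.61 and 0.51 for its 2 probe sets, and Gstp1 0.56 (adjusted p with the block 0.0735, 0.0822 and 0.0735). The fifth was Aldh2 (96057_at), which averaged 1481 ± 37.3 (SD, n = 2) on the adeno-treated and 913 ± 161 (SD, n = 2) on the untreated arrays (0.71, adjusted p = 0.498, and 0.0687 with the block).

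Sult1a1 was the probe set lower at that level, with 700.0 ± 142 (SD, n = 2) on the adeno-treated and 1093 ± 248 (SD, n = 2) on the untreated arrays (-0.64, adjusted p = 0.567, and 0.0687 with the block). Aldh9a1 and Gstm5 (100630_f_at) followed at -0.58 and -0.38 (adjusted p = 0.616 and 0.629). The arrays did not overlap in 14 probe sets that were higher and 10 that were lower, near the 24.6% and 24.3% of all probe sets in a comparison of 2 arrays with 2. Gstm6, Gstm3, Gstm2 and Gstm1 lie side by side on chromosome 3 next to Gstm5. The Gstm1 and Gstm3 probe sets ending in f or r belong to classes that can match related transcripts, so their values may not be separate measurements, which was not tested.

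The 2 hypoxic arrays of number 3 differed from those of number 1 in these families. Compared with array 1 of the same group, the 55 tested probe sets were higher on array 3 by a median of 0.34 in null and 0.48 in wild type, and 38 of 55 were higher on array 3 in both groups, against 33.2% of all probe sets. Fmo1 read 204, 322 and 858 on null arrays 1, 2 and 3, and 156, 212 and 629.7 on the wild-type arrays. Gstk1, a mitochondrial and peroxisomal transferase, read 429, 720.1 and 1186 on the null arrays and 527, 657 and 1256 on the wild-type arrays. Gsta4 was lower on array 3 than on array 1 in both. The hepatocyte markers were also higher on array 3, by a median of 0.24 in null and 0.44 in wild type, while stellate cell and fibroblast markers had median differences of -1.58 in null and -1.64 in wild type, biliary markers of -3.52 and -4.07, and macrophage markers of -0.58 and -0.80. The part of these cell type markers in the differences was not tested.

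**Figure D4:**
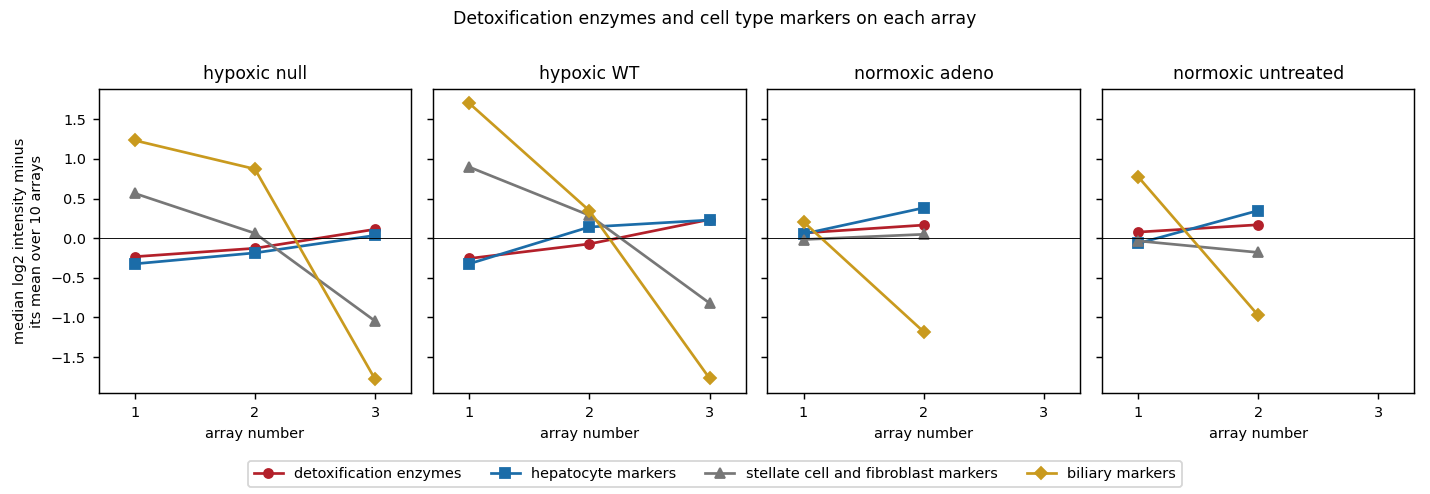
Median log2 intensity of each set of probe sets minus its mean over the 10 arrays (vertical axis) on each array number (horizontal axis), for the detoxification enzymes and 3 sets of cell type markers, with a panel per group. In both hypoxic groups the detoxification enzymes are highest and the biliary and stellate cell markers lowest on array 3.

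Hepatocyte markers also stood lower by median on hypoxic arrays 1 and 2 than on the normoxic adeno-treated array of the same number. Across numbers this did not hold, since wild-type array 2 was above adeno-treated array 1. Nor did these markers stand lower on every hypoxic array than on the untreated arrays. Against the normoxic adeno-treated array of the same number, their median was -0.31 and -0.56 in null for numbers 1 and 2, and -0.26 and -0.27 in wild type, beside medians of the 55 enzyme probe sets of -0.32 and -0.31 in null and of -0.31 and -0.32 in wild type. The summed intensity of the 10 markers was 34733 to 42007 on the null arrays, 32270 to 46908 on the wild-type arrays, 40566 to 50749 on the adeno-treated arrays and 34523 to 39263 on the untreated arrays. Biliary markers stood higher in the same pairs, with medians of 1.58 and 1.47 in null and of 2.09 and 1.53 in wild type, from 3 tested genes of which Krt19 ranged from 131 to 2291. Of the other lists, 11 of 12 stellate cell and fibroblast, 7 of 10 macrophage, 2 of 7 endothelial and 1 of 6 lymphocyte marker genes passed the filter, and their medians in null were 0.59 and 0.03 for stellate cells and fibroblasts and 0.16 and 0.27 for macrophages. Their part in the falls was not tested.

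Of the 12 genes with 2 or more tested probe sets, the probe sets had opposite signs in 7 genes for null against normoxic adeno-treated cells, in 6 for wild type against normoxic adeno-treated cells, in 7 for null against wild type and in 8 for adeno-treated against untreated cells. Besides Aldh2, Fmo5 and Gstm2 carried a call on only 1 of 2 tested probe sets. For Fmo5, 162259_f_at read 31.4 to 68.7 over all arrays and gave 0.08 in null against adeno-treated cells (adjusted p = 0.968), where 160088_at gave -1.03. For Gstm2, 161357_r_at gave 0.29 (adjusted p = 0.808), where 93009_at gave -0.73. Of the 55 tested probe sets, 9 end in f, 4 in r, 4 in s and 1 in i, and 37 have no such ending. Of the 50 genes, 29 lie in 11 runs of neighbouring family members with at most 4 protein-coding genes between them.

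Genes that work beside these enzymes were counted in 5 lists, which were chosen with earlier results of these data known. None of the lists had a call in any of the 4 comparisons without the block. Their medians in null against normoxic adeno-treated cells were -0.28 for other conjugation and carbonyl or epoxide enzymes, -0.22 for cofactor supply, -0.20 for export pumps, -0.07 for regulators and 0.01 for other antioxidant genes, against 0.01 over all probe sets. Of the 27 genes of other conjugation and carbonyl or epoxide enzymes, 15 were tested with 16 probe sets. Of the 16, 14 were lower in null than in normoxic adeno-treated cells, against 49.1% of all probe sets. With the block 4 were called lower, against 2.83% of all probe sets. The 4 were Nnmt, which methylates nicotinamide (-1.03, adjusted p = 0.00388), the carbonyl reductase Cbr1 (-1.03, 0.0117), the aldehyde oxidase Aox1 (-1.19, 0.028) and the glycine methyltransferase Gnmt (-0.66, 0.0144). In wild type 14 of 16 were lower too, against 52.8% of all probe sets. Nnmt, Cbr1 and Gnmt were called there with the block (-1.04, -0.98 and -0.75), where 0.738% of all probe sets were called lower. Aox1 had 40.8, 30.1 and 49.5 on the null arrays, 73.8, 70.7 and 63.5 on the wild-type arrays, 99.9 and 86.3 on the adeno-treated arrays and 107 and 121 on the untreated arrays. Its 3 null arrays were the lowest of the 10.

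Of the 12 genes that supply cofactors for conjugation, 9 were tested with 10 probe sets. Gclm, the modifier subunit of the enzyme that starts glutathione synthesis, and Papss2, which makes the active sulfate donor, fell in null with the block (-0.80 and -0.85, adjusted p = 0.0188 and 0.0244), and none was called in wild type. Of all probe sets, 2.83% were called lower in null with the block and 0.738% in wild type. Gclm had 501, 302 and 462 on the null arrays, 619, 409 and 509 on the wild-type arrays, 770.3 and 638 on the adeno-treated arrays and 991 and 777 on the untreated arrays. All null arrays were below all normoxic arrays, and each was below the wild-type array of its number. Against hypoxic wild type, all 10 probe sets were lower in null, with a median of -0.19, and none was called. Of all probe sets, 45.0% were lower in that comparison, with a median of 0.02.

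Among 15 regulators, 13 tested with 16 probe sets, the liver factor Cebpa and the nuclear receptors Nr1h4 and Nr1h3 fell in null with the block (-0.79, -0.98 and -0.79, adjusted p = 0.00912, 0.0334 and 0.0206), and Cebpa in wild type (-0.88, adjusted p = 0.00781). Over all probe sets, 2.83% were called lower in null and 0.738% in wild type. Cebpa had 789, 699 and 567 on the null arrays, 710.2, 743 and 501 on the wild-type arrays, 1351 and 1278 on the adeno-treated arrays and 1079 and 959.7 on the untreated arrays. All 6 hypoxic arrays were below all 4 normoxic arrays, and array 3 was the lowest of both hypoxic groups. Of the 17 other antioxidant genes linked to the factor NRF2, 13 were tested with 16 probe sets. Hmox1, the heme oxygenase, and the plasma glutathione peroxidase Gpx3 rose with the block in null (0.98 and 0.90, adjusted p = 0.00287 and 0.01) and in wild type (0.68 and 1.02, adjusted p = 0.024 and 0.00719). Over all probe sets, 2.95% were called higher in null and 1.49% in wild type. Hmox1 had 1389, 2120.4 and 2040.0 on the null arrays, 1069, 1725 and 1719 on the wild-type arrays, 668 and 1099 on the adeno-treated arrays and 669 and 895 on the untreated arrays. Within each number the null array was the highest, though adeno-treated array 2 was above wild-type array 1. With the number 3 arrays left out, 9 of these 11 companion calls in null held, all but Papss2 and Nr1h4 (adjusted p = 0.0559 and 0.0694), and 5 of 6 in wild type, all but Hmox1 (adjusted p = 0.0625). Without normoxic adeno-treated array 1 the calls that held were Nnmt and Hmox1 in null and Nnmt and Gnmt in wild type, and without array 2 Hmox1 in null and none in wild type. Of the 9 export pumps 5 were tested, and none was called in any comparison. All 5 were lower in null than in wild type with a median of -0.14, where 45.0% of all probe sets were lower.

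The 17 probe sets under the filter read 0.3 to 52.4 over all arrays and were given no test. They left 9 genes with no tested probe set: Gsta1, Sult1c1, Sult2b1, Sult3a1, Sult5a1, Ces1g, Ces3a, Aldh1a2 and Aldh1a3. Genes with a dim probe set beside a tested one were Gstm5, Mgst2, Mgst3, Sult1a1, Aldh18a1, Aldh1a1, Aldh3a1 and Aldh7a1. The list of these enzymes holds no Ugt1 gene, since the Ugt1a probe set of the array carries several symbols.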

How the data were processed

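The authors deposited linear, scaled intensities, 1 per probe set and array. Array means without the lowest and highest 2% were 199.6 to 200.0, and medians 60 to 70.9. How scans became intensities was not given in the sources used here. Arrays give no count, so their number limits the precision. The offset of 4.7 was added, log2 taken, and 66 control probe sets and those under the 40th percentile of the mean log2 left out, leaving 7453.

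The 4 group means of the 10 arrays were fitted in limma 3.58.1 under R 4.3.3, with eBayes and its trend option, 2-sided tests and Benjamini-Hochberg adjustment. The fit left 6 residual degrees of freedom, or 4 with the block. The fit was also run on simulated data with planted changes larger than any called in these families. That run does not show how well smaller changes are found. Deviations from group means correlated above 0.1 in 13 of 13 same-number pairs (lowest 0.106, hypoxic arrays 0.542 to 0.678). The labels' numbers were therefore read as pairing the arrays. These pairs are not 13 separate checks, because the deviations of the 2 arrays of a normoxic group mirror each other. Of 24 different-number pairs 4 were also above 0.1 (highest 0.251), all between a normoxic array 2 and a hypoxic array 3. Normoxic arrays 2 correlated with hypoxic arrays 2 at 0.106 to 0.177 and with hypoxic arrays 3 at 0.149 to 0.251. For them the deviations do not single out the hypoxic arrays of the same number.

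The families and lists were chosen with earlier results of these data known. Named are the probe sets called in either fit, the 3 of smallest p in each direction of a comparison, the brightest of a family and genes with several probe sets. Gene names come from the platform annotation, matched to GRCm38.p6, from which the order of neighbouring genes was also taken. Alternatives covered the offset, filter, scaling, trend, block, normoxic arrays, 1 probe set per gene, and leaving out each array of the groups compared.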

Additional observations from a re-analysis of the deposited data

How the results depend on the processing

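Without the replicate block, no alternative called any of the tested probe sets in any of the 4 comparisons. The alternatives were a smaller and a larger offset, no filter, a filter at the 60th percentile, quantile normalization and no intensity trend. Further ones were 1 probe set per gene, all 4 normoxic arrays as 1 group and the number 3 arrays left out. In the last, each array of the groups compared was left out in turn.

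With the replicate block, which changed no call in null against wild type or in adeno-treated against untreated cells, 12 probe sets were lower in null than in normoxic adeno-treated cells and 2 in wild type, and with the number 3 arrays left out 9 and 2. The block was combined with further settings after the data were seen. There the counts were 14 in null and 7 in wild type against all 4 normoxic arrays, and 11 and 3 after quantile normalization. Leaving out in turn each normoxic adeno-treated and each null array gave 2 to 13 in null. The counts were 4 (Adh1, Fmo5, Gstt2 and Ugt2b5) without normoxic adeno-treated array 1 and 2 (Fmo5 and Aldh1a7) without array 2. Without null arrays 1, 2 and 3 they were 13, 5 and 9. Wild-type and untreated arrays were not left out 1 at a time for this comparison. In wild type, leaving out in turn each normoxic adeno-treated and each wild-type array gave 0 to 2. None was called when either normoxic adeno-treated array was left out, and 1 (Fmo5) without wild-type array 1. Without wild-type array 2 there were 2 (Adh1 and Fmo5), so Gstt2 was lost. Without wild-type array 3 there were 2 (Fmo5 and Gstt2). Null against wild type had 2, Aldh1a1 and Ugt2b5, without null array 1 and 0 otherwise. All 12 probe sets called in null kept their direction in each of these block settings.

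The calls against normoxia thus rest on 2 normoxic arrays. In wild type against normoxic adeno-treated cells, with the block, Aldh3a2 (161401_f_at) turned to -0.18 against all 4 normoxic arrays, -0.23 without adeno-treated array 2 and -0.089 without wild-type array 1, and Sult2a2 to -0.0018 after quantile normalization, -0.0505 without adeno-treated array 1 and -0.22 without wild-type array 2. Neither was called, and the cause was not tested. Over all settings, the named probe sets gave 629 values on the same side of the threshold, 89 past it only with the block, and these 6 that turned.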
